A study of Caenorhabditis elegans with 2 samples.

Results

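The aminoacyl-tRNA synthetase genes of Caenorhabditis elegans were taken as every protein-coding gene whose symbol is a single letter followed by ars- and a number, such as mars-1 or vars-1, and 32 of 19973 nuclear protein-coding genes met this rule. Number 1 stood in 20 of the symbols, number 2 in 11 and number 3 in 1, fars-3. LIN-38 binding at them came from chromatin immunoprecipitation followed by sequencing (ChIP-seq) in 2 biological replicates of 1 group. The animals were strain RW12236, which carries st12236[lin-38::TY1::EGFP::3xFLAG] II, a CRISPR insertion into lin-38, so that tagged LIN-38 could be recovered with an antibody against GFP. They were whole L4 larvae of 48 hours, synchronised as L1 larvae starved after bleaching, and chromatin was sheared by sonication. Binding in individual tissues cannot be told apart in whole animals, and fewer cells with binding and less binding per cell cannot be told apart either. Untagged or other control animals were not analysed here. Sequencing depth is unknown, since the deposited peak lists give no read counts.

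Aminoacyl-tRNA synthetases join each amino acid to its transfer RNA (tRNA), the step on which the accuracy of translation rests. Animal cells need a set of these enzymes in the cytosol and another in mitochondria. The mitochondrial enzymes are made from nuclear genes and imported, and some genes serve both compartments. LIN-38, encoded by a synMuv A gene, is found in the nucleus and is known for acting redundantly with synMuv B proteins to keep the wrong cells from taking vulval fates.

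A gene was counted as bound when the summit of a peak in the conservative list, the list made from both samples that the authors named conservative and thresholded by the irreproducible discovery rate (IDR), fell inside a promoter window, which reached 500 bp upstream and 200 bp downstream of each annotated 5′ end. Such a summit was present at 17 of the 32 synthetase genes (53.1%), against 14.6% of all nuclear protein-coding genes. The 17 genes were mars-1, vars-1, kars-1, tars-1, hars-1, aars-1, qars-1, rars-1, nars-1 and cars-1 of number 1, pars-2, ears-2, sars-2, yars-2, aars-2 and iars-2 of number 2, and fars-3. By number, 10 of 20 number 1 genes (50%) and 6 of 11 number 2 genes (54.5%) had a summit, so the shares were close. The members were chosen by name and with their counts already known, and no test was made over them.

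The signal value, the authors' own measure of peak height in units that are not stated, split the bound genes into a tall group and a lower one. In the conservative list 6 genes lay between 981 and 2348, and the remaining 11 between 82.6 and 347, with none in between. The tall group held mars-1, vars-1 and kars-1 of number 1 and pars-2, ears-2 and sars-2 of number 2. Values above 900 were found at 35.3% of the bound synthetase genes, against 669 of 2893 other bound genes (23.1%). The line of 900 lies inside the gap of the synthetase values. A line lower in that gap would keep their share and raise that of the other genes, so this contrast depends on the line. The median of the tallest promoter peak per gene was 316 at the 17 synthetase genes and 338 at the other bound genes, so the family as a whole did not carry taller peaks than bound genes in general. Within it the median was 263 at the 10 number 1 genes and 629 at the 6 number 2 genes, with wide ranges, 82.6 to 2348 at number 1 genes and 94.5 to 1245 at number 2 genes.

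**Figure D1:**
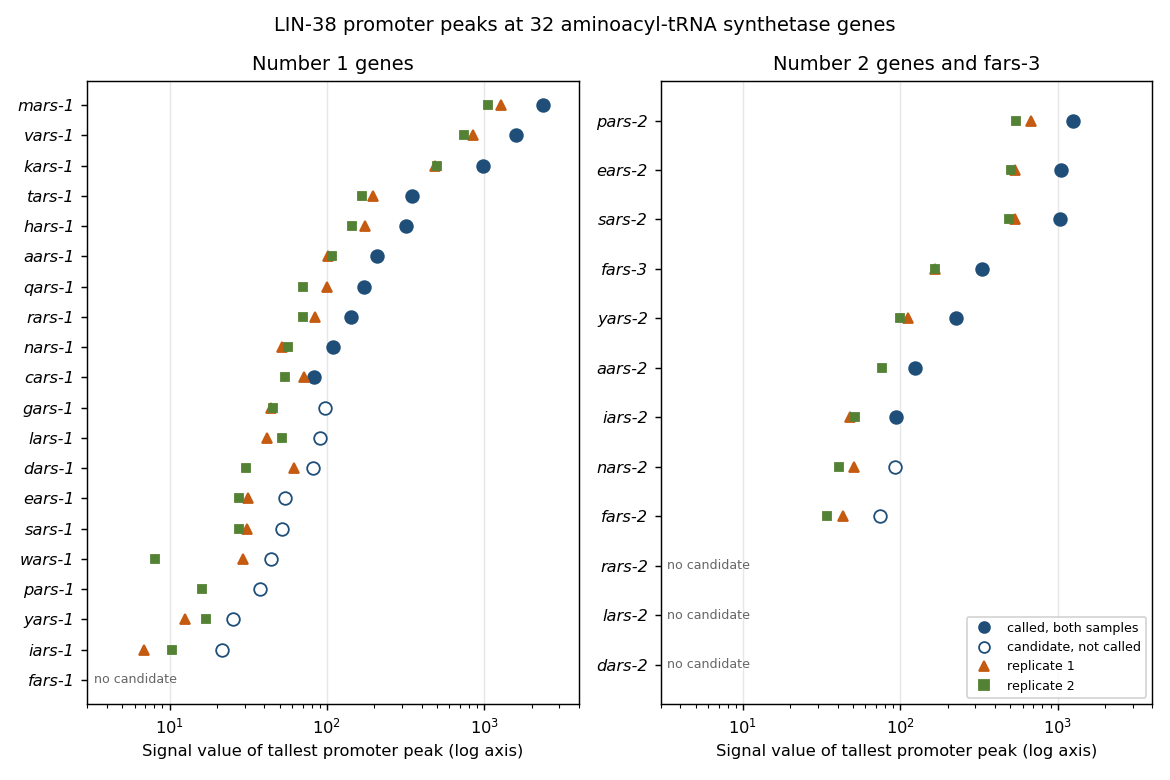
Signal value of the tallest promoter peak (log axis) at the 20 number 1 genes (left) and at the 11 number 2 genes with fars-3 (right). Filled circles are peaks of the conservative list, open circles are candidate peaks that did not reach it, and triangles and squares are the overlapping peaks in the ranked lists of replicates 1 and 2; the 6 tall genes stand apart, from 981 to 2348.

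The tallest peak of the family was at mars-1, the number 1 gene of methionine, whose enzyme also charges the tRNA that starts proteins. Replicate 1 gave it a signal value of 1286 and replicate 2 one of 1049, and it had 2348 in the list of both samples, where it ranked 221 of 5405 nuclear peaks. The peak covered 485 bp, from 11635563 to 11636047 on chromosome IV, and its summit lay between genes, 273 bp upstream of the mars-1 5′ end. The valine gene vars-1 came next, with 853 in replicate 1 and 745 in replicate 2, and 1598 in the list of both. Its summit was 45 bp upstream of the 5′ end, in a peak from 8031196 to 8031525 on chromosome V. The lysine gene kars-1 had 489 in replicate 1 and 501 in replicate 2, and 981 in the list of both. Its summit lay 314 bp upstream, in a peak from 7072569 to 7072903 on chromosome II. At all 3 genes the summit lay in the promoter window of no other protein-coding gene.

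Of the number 2 genes, the proline gene pars-2 had the tallest peak, with 680 in replicate 1 and 547 in replicate 2, and 1245 in the list of both samples. Its summit lay 18 bp upstream of the outermost 5′ end. A further pair of summits lay in introns of pars-2, 388 bp and 240 bp upstream of its other annotated 5′ ends, with signal values of 311 and 275. The glutamate gene ears-2 had 538 in replicate 1 and 508 in replicate 2, and 1047 in the list of both. Its summit was 30 bp upstream, in a peak from 390342 to 390626 on chromosome IV, and uncp-18 shares it. The serine gene sars-2 had 539 in replicate 1 and 488 in replicate 2, and 1032 in the list of both, with its summit 146 bp upstream in a peak from 4357345 to 4357640 on chromosome IV. All 6 tall peaks were in the thresholded list of each replicate.

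The bases at 5 of these 6 summits are shown because the tall group is where a shared pattern of letters was seen. They are from the RefSeq genome of the assembly WBcel235, on the strand of the gene, cut where an annotated exon begins, and capitals mark the pattern GCGCNNTTG or its reverse complement. The regions are chrIV:11635700-11635820 (mars-1, minus strand), chrV:8031306-8031410 (vars-1, plus strand), chrII:7072669-7072789 (kars-1, minus strand), chrIV:390469-390558 (ears-2, minus strand) and chrIV:4357430-4357550 (sars-2, plus strand).
mars-1: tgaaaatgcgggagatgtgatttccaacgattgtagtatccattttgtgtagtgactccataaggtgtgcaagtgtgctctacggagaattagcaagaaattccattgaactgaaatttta
vars-1: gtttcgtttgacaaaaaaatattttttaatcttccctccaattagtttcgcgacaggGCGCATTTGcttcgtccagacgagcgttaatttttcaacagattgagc
kars-1: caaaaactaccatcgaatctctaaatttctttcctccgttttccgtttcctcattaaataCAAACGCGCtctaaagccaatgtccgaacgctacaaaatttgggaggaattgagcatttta
ears-2: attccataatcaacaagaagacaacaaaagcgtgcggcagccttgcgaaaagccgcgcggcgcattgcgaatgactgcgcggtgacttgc
sars-2: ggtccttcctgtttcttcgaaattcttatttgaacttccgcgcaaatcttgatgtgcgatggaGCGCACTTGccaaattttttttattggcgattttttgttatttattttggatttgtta

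The pattern, which has 9 letters of which 2 may be any base, was noticed in these sequences and searched for afterwards, on both strands, so the counts below describe the members and support nothing. Its middle lay 1 bp from the summit at vars-1, 4 bp at kars-1, 7 bp at sars-2 and 11 bp at pars-2. At kars-1 it stood on the strand opposite to the gene and at vars-1, sars-2 and pars-2 on the strand of the gene. In ears-2 it lay 47 bp from the summit, 17 bp inside the annotated gene, and the printed bases do not reach it. The mars-1 window of 701 bp did not hold it, although that peak was the tallest. Of the 6 tall summits 4 had the whole pattern within the 101 bp centred on the summit, and of the 11 lower ones 0 had it. The ears-2 match was cut by the edge of that stretch and so was not counted.

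Across all genes the same pattern went with peak height. It was present within the 101 bp at the tallest summit of 48.0% of 675 bound genes with a signal value above 900 and of 9.22% of the 2235 below. Over all 5405 nuclear summits it was found at 777 (14.4%), against 1.42% and 1.28% of equally wide windows 300 bp to either side. It stood at 48.1% of summits among the 10% tallest peaks and at 2.96% among the 10% lowest. Where it was present, the median distance of its middle from the summit was 15 bp, and 67.3% of them lay within 20 bp. The same letters in reverse order, GTTNNCGCG, were found at 1.89% of summits. Seen from the promoters, the pattern was in the windows of 5 of 32 synthetase genes (15.6%), all 5 of them bound, and in 5.90% of all gene windows. Of the 1178 genes with the pattern in the window of their outermost 5′ end 602 (51.1%) were bound, against 12.3% of genes without it. The summit could lie in the window of another 5′ end of the same gene. Which protein reads these letters cannot be told from peak lists.

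**Figure D2:**
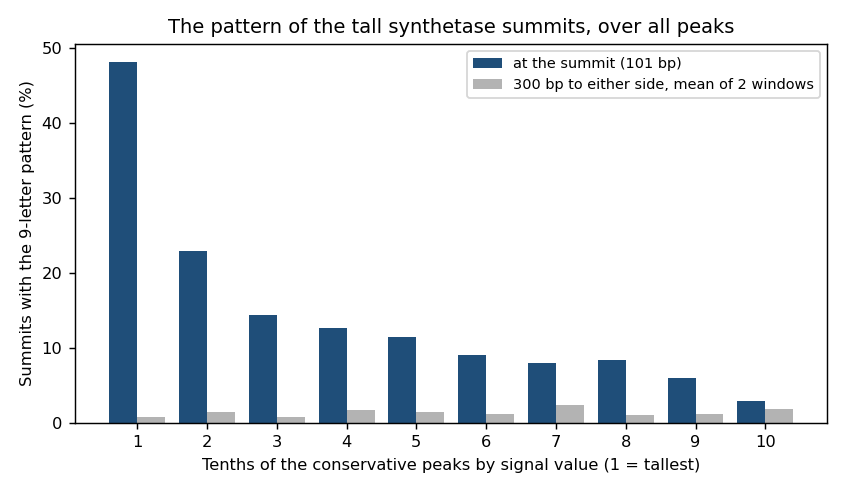
Share of summits (%) with the 9-letter pattern within 101 bp, for the 5405 nuclear peaks of the conservative list in 10 equal groups by signal value, the tallest at the left. Dark bars are windows at the summit and grey bars the mean of the windows 300 bp to either side; the dark bars are highest in the tallest group, at 48.1%, and lowest in the last, at 2.96%, with 7.96% and 8.33% in groups 7 and 8.

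The sequence patterns listed for cell cycle and stress regulators were found at few synthetase genes or, for TTTGAA, at nearly the share of all gene windows. The E2F-like letters TTCCCGC were in the promoter window of 1 of 32 synthetase genes, aars-2 (3.12%, against 6.98% of all gene windows), and GCGCGAA in 0 of 32 (against 4.09%). At the 17 summits TTCCCGC was found at 1, that of aars-2 (against 3.33% of all summits), and GCGCGAA at 0 (against 3.72%). The CHR letters TTTGAA were in 28 of 32 windows (87.5%, against 88.9%), and at 3 of the 17 summits, those of aars-2, iars-2 and sars-2 (against 21.6% of all summits). CACGTG, the E-box, was in 3 of 32 windows (9.38%, against 12.1%), and at 1 of the 17 summits, that of hars-1 (against 3.24% of all summits). The CRE letters TGACGTCA were in 0 of 32 (against 3.55%). Letters like the amino acid response element of ATF4, a factor that raises synthetase genes when amino acids run short in mammals, were in 1 window each, TGATGCAA in iars-1 (3.12%, against 2.97%) and TGATGAAA in lars-1 (3.12%, against 8.21%). CTGCGTC, a pattern of worm housekeeping promoters, was in 1 of 32 (aars-1, 3.12%, against 7.83%), and at 0 of the 17 summits (against 6.73% of all summits). All were searched on both strands, and none of these patterns lies inside another. A missing match says only that these letters are not in the window searched.

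The lower group began with tars-1, the threonine gene, with 197 in replicate 1 and 167 in replicate 2, and 347 in the list of both samples. Its summit lay 95 bp upstream, in the window of xpf-1 and in an intron of kel-1, on chromosome II. The peak, from 11695629 to 11695878, was made almost entirely of an inverted repeat, 2 arms of 103 bp that matched without a difference and lay 43 bp apart. Of the stretches of 36 bases at this summit 71.2% occurred more than once in the genome, up to 36 times. At the other 16 bound synthetase genes 0% did, and the longest inverted arm inside their peaks was 17 bp, at qars-1. More than 50% repeated stretches were found at 65 of the tallest summits of all bound genes (2.23%) and at 380 of all summits (7.03%). How reads from such copies were placed is not given in the sources used here, and the part of the repeat in the tars-1 value was not tested. The middle of the peak, chrII:11695692-11695812 on the minus strand of WBcel235, is shown with the inner ends of both arms, 38 and 40 bases, in capitals.
tars-1: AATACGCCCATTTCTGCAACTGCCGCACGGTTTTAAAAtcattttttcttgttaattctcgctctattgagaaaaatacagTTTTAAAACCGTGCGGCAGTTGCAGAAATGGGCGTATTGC

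A weaker second summit of tars-1, at 139.8, lay 352 bp upstream of another of its 5′ ends, in a window shared with kel-1. fars-3, which encodes the beta subunit of phenylalanine--tRNA ligase by its RefSeq product name, had 167 in replicate 1 and 165 in replicate 2, and 333 in the list of both, 162 bp upstream of its 5′ end. The histidine gene hars-1 had 175 in replicate 1 and 145 in replicate 2, and 316 in the list of both; its summit, 163 bp upstream, also lay in the window of T11G6.2. The tyrosine gene yars-2 had 112 in replicate 1 and 99.6 in replicate 2, and 227 in the list of both. That summit and the one of rars-1 were the only tallest summits downstream of a 5′ end, by 23 bp at yars-2 and by 85 bp at rars-1.

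The alanine gene aars-1 had 101 in replicate 1 and 108 in replicate 2, and 209.7 in the list of both, at a summit 117 bp upstream that was shared with rga-1. Its partner aars-2 had no peak in replicate 1's ranked list and 76.3 in replicate 2, and 124 in the list of both. The glutamine gene qars-1 had 99.9 in replicate 1 and 70.2 in replicate 2, and 171 in the list of both, at a summit in its own intron. Its other 2 summits had 155 and 106 and were in neither replicate's thresholded list. Their peaks overlapped each other and took the same replicate 1 peak. The arginine gene rars-1 had 84.6 in replicate 1 and 70.8 in replicate 2, and 142 in the list of both. These 4 genes lay in the lower part of the conservative list, at ranks from 2720 to 4236.

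The weakest bound genes were nars-1 (asparagine), iars-2 (isoleucine) and cars-1 (cysteine). nars-1 had 52.2 in replicate 1 and 56.3 in replicate 2, and 109 in the list of both, at a summit shared with nduf-6. iars-2 had 47.5 in replicate 1 and 51.6 in replicate 2, and 94.5 in the list of both, at a summit shared with C25A1.20. cars-1 had 71.6 in replicate 1 and 54.0 in replicate 2, and 82.6 in the list of both, in a coding exon 257 bp upstream of one of its 5′ ends. A second cars-1 summit, at 49.6, overlapped the same replicate peaks. None of the 3 was in the thresholded list of either replicate, and these 3 and aars-2 were also missing from the other thresholded list of the series.

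The replicates gave similar values at the called summits. The IDR threshold keeps peaks by their reproducibility, so this similarity partly follows from that choice. Both had a ranked peak at 16 of the 17 tallest summits, all but that of aars-2. At these 16 the log2 ratio of replicate 1 over replicate 2 ran from -0.12 to 0.51, with a median of 0.18. Replicate 1 was the higher at 12 of the 16. Of the 17 summits 11 were in both replicates' thresholded lists, 1 in replicate 1's only (rars-1), 2 in replicate 2's only (aars-2 and fars-3) and 3 in neither. Counted from replicate 1's own list, 13 of 32 synthetase genes (40.6%) had a promoter summit, against 13.2% of all genes, and they were 8 of 20 number 1 and 5 of 11 number 2 genes. From replicate 2's own list it was again 13 of 32 (40.6%), against 13.1%, with 7 of 20 and 5 of 11.

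The 15 genes without a called promoter summit were gars-1, lars-1, dars-1, ears-1, sars-1, wars-1, pars-1, yars-1, iars-1 and fars-1 of number 1 and nars-2, fars-2, rars-2, lars-2 and dars-2 of number 2. Of these 11 had a candidate in the ranked list of the series, which is far longer. With candidates counted, 28 of 32 synthetase genes (87.5%) had a summit in the window, against 34.8% of all genes, and they were 19 of 20 number 1 genes (95.0%) and 8 of 11 number 2 genes (72.7%). The threshold is set by a score derived from the IDR, and called peaks had a score of at least 830. Just inside it lay iars-2 at 847, aars-2 at 911 and nars-1 at 964, and just outside it gars-1 at 732, lars-1 at 701 and nars-2 at 591.

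The glycine gene gars-1 had 44.1 in replicate 1 and 45.3 in replicate 2, and 97.5 in the ranked list of both, more than the called peaks of iars-2 and cars-1. The leucine gene lars-1 had 41.7 in replicate 1 and 51.6 in replicate 2, and 90.2 in the ranked list of both. nars-2 had 50.5 in replicate 1 and 40.5 in replicate 2, and 92.7 in the ranked list of both. The candidates next to the threshold thus overlapped in height with the weakest called peaks. The aspartate gene dars-1 had 61.5 in replicate 1 and 30.5 in replicate 2, a combined value of 81.7 and a score of 110. fars-2 had 43.1 in replicate 1 and 34.4 in replicate 2, with a combined value of 73.8. The replicates were also far apart at the tryptophan gene wars-1, with 29.1 in replicate 1 and 8.09 in replicate 2, and at pars-1, with no peak in replicate 1 and 16.2 in replicate 2; their combined values were 43.8 and 37.6. The remaining candidates had combined values of 54.0 at ears-1, 52.0 at sars-1, 25.5 at yars-1 and 21.6 at iars-1.

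No candidate lay in the windows of fars-1, lars-2, dars-2 and rars-2. At rars-2, the number 2 gene of arginine, the lists differed. Replicate 1's own thresholded list held a peak there of 81.4, and the other thresholded list of the series one of 146, with its summit 145 bp upstream, while replicate 2's ranked list held none. At fars-1 a summit lay inside the gene, outside the window. That intronic summit, 1362 bp downstream of the 5′ end, had 254 in replicate 1 and 222 in replicate 2, and 481 in the conservative list, above every called promoter peak of the lower group.

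Other summits inside synthetase genes but outside their windows had lower values in the conservative list. nars-2 had one of 208 in an intron, in the promoter window of Y66D12A.24, and pars-2 one of 273 in an intron, in the promoter window of T27F6.6. Summits in UTRs were found in iars-2 (228 and 67.6), rars-1 (101) and cars-1 (50.1). The replicates' own values at the cars-1 UTR summit were higher, 133 in replicate 1 and 138 in replicate 2. They exceeded those at its tallest promoter summit, 71.6 and 54.0. The iars-2 summit of 67.6 had 72.1 in replicate 1 and 135 in replicate 2. Both of these UTR peaks overlapped peaks in each replicate's thresholded list. The iars-2 peak of 228 overlapped no peak in replicate 2's ranked list. Summits in coding exons of tars-1 (98.5 and 29.9) and ears-2 (94.6) were in neither replicate's thresholded list. The tars-1 pair overlapped the same peak in each replicate.

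Both numbers exist for 11 amino acids. Number 1 and number 2 both had a summit for 1 of them, alanine. Number 1 alone had one for 2, asparagine and arginine. Number 2 alone had one for 5, glutamate, isoleucine, proline, serine and tyrosine, and neither for 3, aspartate, phenylalanine and leucine. The share over all nuclear protein-coding genes was 14.6%. Whether partners share a summit less often than unrelated genes was not tested. For proline the number 1 gene had a candidate of 37.6 and the number 2 gene a peak of 1245. For serine the values were 52.0 at sars-1 and 1032 at sars-2, and for glutamate 54.0 at ears-1 and 1047 at ears-2. When candidates were counted with the called peaks, the higher value was at number 1 for 5 amino acids and at number 2 for 6. A gene with no candidate was taken as the lower. That decided aspartate, leucine and arginine for number 1 and phenylalanine for number 2. For phenylalanine neither the fars-1 summit of 481, outside its window, nor the fars-3 peak of 333 entered this tally. For arginine the other thresholded list had 146 at rars-2 and 142 at rars-1. These counts are close and do not show that either number led. The tall peaks among these pairs were those of proline, serine and glutamate, each at the number 2 gene.

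The number is an incomplete guide to the compartment. By RefSeq product names aars-1 is the mitochondrial and aars-2 the cytoplasmic alanine--tRNA ligase, the reverse of the rule used here. Product names placed 10 members in the cytoplasm, of which 6 had a summit, and 4 in mitochondria, of which 3 had one, aars-1, ears-2 and pars-2 but not rars-2. The other 18 had no compartment in the name, and 8 of them had a summit, sars-2, kars-1 and vars-1 among them. Of all nuclear protein-coding genes 14.6% had one.

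The enzymes can also be sorted by the fold of their catalytic core and by their partners, groupings that were made with the values known. Class I enzymes, which include those for methionine, valine and glutamate, had a summit at 8 of 15 genes, and class II enzymes, which include those for lysine, serine and proline, at 9 of 17. Homologues of the enzymes that form the multi-synthetase complex of mammals had one at 4 of 9 genes (kars-1, mars-1, qars-1 and rars-1), and the other number 1 genes at 6 of 11. The background of these class and complex counts is the 14.6% of all nuclear protein-coding genes. By chromosome, a summit was present at 5 of 9 members on I (against 24.8% of all genes there), 4 of 5 on II (14.1%), 1 of 6 on III (23.0%), 6 of 8 on IV (15.7%) and 1 of 4 on V (8.77%), and 0 members lay on X. Each of these counts is small.

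Most summits lay upstream, in a window that reaches further upstream than downstream. Of the 17 tallest summits 15 were upstream of the 5′ end (88.2%, against 86.7% of the tallest summits of all bound genes) and 2 downstream, with a median of 162 bp upstream, and 7 lay more than 200 bp upstream. The median position was -210 bp at number 1 genes and -88 bp at number 2 genes. In all 23 summits lay in the windows, and 4 genes, cars-1, pars-2, qars-1 and tars-1, had more than 1. At cars-1 and qars-1 some of these were summits of overlapping peaks that shared a replicate peak. Of the 17 tallest summits 6 lay also in the window of another gene, those of ears-2, tars-1, hars-1, aars-1, nars-1 and iars-2, and such peaks cannot be credited to the synthetase gene alone. Among all bound genes 1107 of 2910 (38.0%) shared their tallest summit. The pars-2 peak ran from 12486759 to 12487112 on chromosome I. The nearest tRNA gene was 67.8 to 504 kb away from these summits, so none of them is a peak of a tRNA gene beside a synthetase gene. The GC content within 101 bp of the summits had a median of 42.6%, against 44.6% at all summits.

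**Figure D3:**
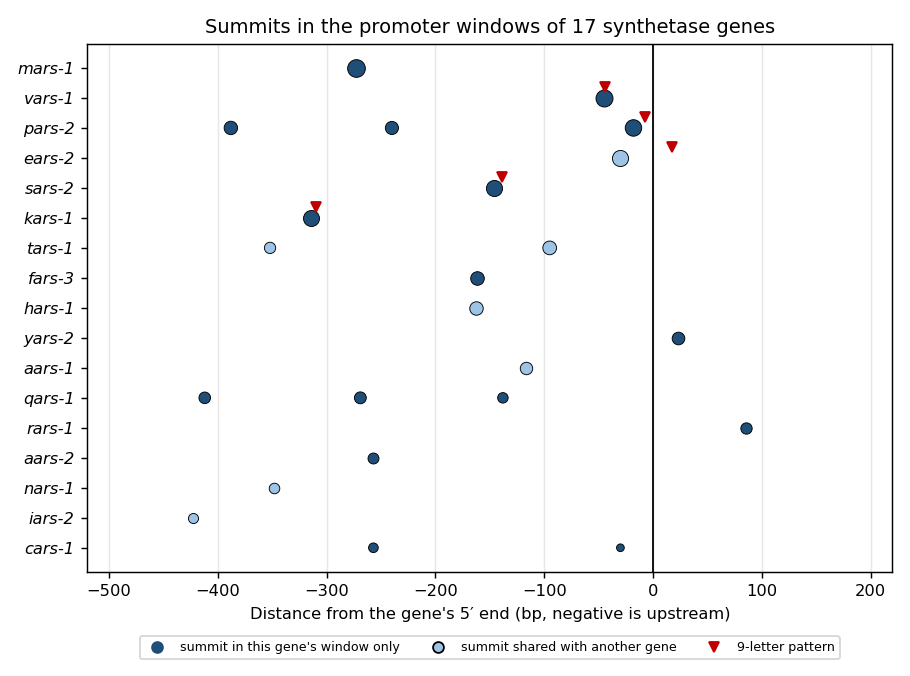
Distance in bp of each called summit from the closest fitting 5′ end of the 17 bound synthetase genes, ordered by signal value with the tallest at the top. Circle area grows with the log2 signal value, pale circles are summits shared with another gene and triangles mark the 9-letter pattern; 15 of the 17 tallest summits lie upstream.

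Genes that encode synthetases under other names had values in the same range. Y105E8A.20, whose product is named as the mitochondrial methionine--tRNA ligase, had 546 in replicate 1 and 446 in replicate 2, and 987 in the conservative list, at a summit of its own. glp-4, a valine--tRNA ligase gene whose mutant is known for lacking a germ line, had 136 in replicate 1 and 102 in replicate 2, and 252 in the conservative list, at a summit shared with Y87G2A.16. K03B4.1, named as a seryl-tRNA synthetase, had a candidate of 35.3. prx-10, of which one product is named as a tryptophan--tRNA ligase, had none. With membership by product name in place of the symbol, 19 of 34 genes (55.9%) had a summit.

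Set beside the other genes of translation, the synthetases stood between the ribosomal proteins and the enzymes that modify tRNA. Cytosolic ribosomal protein genes had a promoter summit at 70 of 81 genes (86.4%), with a median of 523 at the bound ones, and rpl-20 (14968), rpl-7A (13948) and rpl-12 (12924) were the highest. Translation factor genes had one at 33 of 46 (71.7%; median 392), led by iff-2 (7241), eef-1G (5067) and eif-3.C (1931). Mitochondrial ribosomal protein genes had one at 39 of 70 (55.7%; median 273), led by mrps-7 (7378), mrpl-28 (5549) and mrpl-45 (5224). Genes for tRNA processing and modification had one at 5 of 18 (27.8%; median 232), led by mtcu-2 (8415), pus-1 (436) and elpc-2 (232). The genes listed for the response to uncharged tRNA, gcn-1 (458), gcn-2 (252) and atf-4 (119.6), all 3 had one. The tallest synthetase peak, 2348 at mars-1, was thus below the tallest peak of each of these lists except the last.

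**Figure D4:**
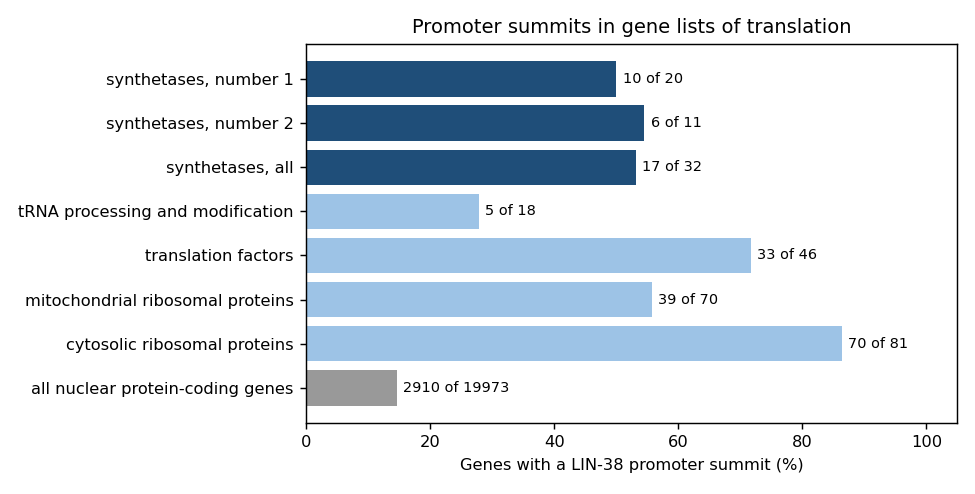
Share of genes (%) with a LIN-38 promoter summit in the conservative list, with the number of genes beside each bar, for the synthetase genes (dark), other genes of translation (pale) and all nuclear protein-coding genes (grey). The synthetase genes, at 53.1%, stand near the mitochondrial ribosomal protein genes, at 55.7%, and above the 14.6% of all genes.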

How the data were processed

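LIN-38-EGFP was measured by ChIP-seq in 2 biological replicates of 1 group of whole L4 larvae. The authors deposited 8 peak lists on ce11, of which 7 were used. Per the labels and the deposited list of outputs, every replicate has a ranked and a thresholded list, and the series has lists made from both. Aligner and peak caller were not given in the sources used here. The signal value of a deposited peak is the authors' own height in unstated units, so the combined value and the replicates' values are set side by side only. At the 16 members with both, the combined value was 0.658 (cars-1) to 1.07 times the sum of the replicates' values, with a median of 1.00. The deposited score is a scaled IDR, at least 830 in the conservative list, and the deposited −log10 of the IDR was used only to check it. No read counts, depths or intervals can be had.

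Genes were those of Ensembl release 115 for WBcel235, the same assembly, with 29314 distinct 5′ ends of 19973 protein-coding genes on 6 chromosomes. A summit was given to every gene whose window, 500 bp upstream to 200 bp downstream of a 5′ end, held it. A replicate's value is that of the overlapping peak with the nearest summit in its own ranked list. Product names came from RefSeq. Patterns were counted on both strands, in 701 bp from the outermost 5′ end and in 101 bp at the summit. The assignment was tested on simulated peaks. With 1 group there is no test between samples, and genes are not replicates, so counts stand beside the share of all genes and no p-value was computed. Every member was named; of other genes, those sharing a summit with a member and the 3 highest of each list. The members, lists and groupings were chosen with earlier results of these data known. Python 3.11.15, pandas 2.3.3, numpy 2.4.6 and matplotlib 3.10.9 were used.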

Additional observations from a re-analysis of the deposited data

How the results depend on the processing

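The 17 bound synthetase genes, 10 of number 1 and 6 of number 2, were recounted under each alternative, and 31 of 36 recounts lay within 1.5 times of these counts. Without replicate 1 and without replicate 2 the count was 13 of 32 both times (40.6%, against 13.1% and 13.2% of all genes). It held 7 to 8 number 1 genes and 5 number 2 genes. Restricted to conservative peaks found in both replicates' lists the count was 11 of 32 (34.4%, against 11.5% of all genes). With the top 50% of peaks it was 10 (31.2%, against 9.86%), of which 5 were number 1 genes. With compartments from product names, 6 genes counted as cytoplasmic and 3 as mitochondrial. A window of 200 bp upstream to 100 bp downstream gave 12 genes (37.5%, against 8.04% of all genes) and left out mars-1 and kars-1 of the tall group. The other thresholded list gave 14 (43.8%, against 14.7%), without aars-2, cars-1, iars-2 and nars-1 but with rars-2. The 13 bound genes found in that list had identical signal values there. Membership by product name, the removal of overlapping peaks and the 9-letter pattern were chosen after seeing the data. No paired analysis was possible because there was 1 group of samples. The unknown depth limits what the 15 genes without a call show: a weak or missing peak is not absence of binding.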
